A study of Mus musculus with 3 samples.

Results

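The 9 genes described here are targets and feedback regulators of transforming growth factor beta (TGF-beta): Smad7, Skil, Pmepa1, Ldlrad4, Smurf1, Adam19, Tgfb1i1, Tgfbi and Ltbp2. They were chosen by symbol, as genes known to be raised by TGF-beta signalling, and all 9 were found among the 18245 genes of the expression table. Their messenger RNA was measured by sequencing 3 libraries from each of 3 kinds of mouse cell (n = 3 per kind throughout). Cardiosphere-derived cells (CDC) are stromal-like cells expanded from explant outgrowths that had passed through floating spheres. CDC-EpiC is an epithelial clone lifted with a cloning cylinder after CDC had been cultured for 2 weeks with 10 µM SB-431542, a compound that blocks the kinase activity of the type I TGF-beta receptor. Primary epicardial cells (pEpiC) were freed from the heart by collagenase and trypsin.

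All cells came from C57BL/6 mice, with heart ventricle epicardium as the labelled tissue. The mice were 6 weeks old for CDC, and so for the clone drawn from them, and 6 to 8 weeks old for pEpiC, and CDC and pEpiC were used at passage 3. No allele or transgene was named for any kind. All 3 CDC-EpiC libraries come from a single clone, with neither a second clone nor an untreated clone beside it, and whether the inhibitor was still present when RNA was taken is not given. Treatment, selection of the clone and the identity of that clone can therefore not be told apart. Culture media and dish coatings also differed between CDC and pEpiC.

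TGF-beta ligands are secreted in a latent complex, in which latency proteins hold the growth factor in the matrix until it is released. Free ligand brings the type II and type I receptors together, the type I receptor phosphorylates SMAD2 and SMAD3, and these enter the nucleus with SMAD4 and change transcription. Among the genes raised are several whose products limit the same signal, and in the epicardium TGF-beta is known for driving the passage from epithelial to mesenchymal cells.

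In the CDC-EpiC clone, 7 of the 9 genes were lower than in CDC (34.6% of all genes were) and 2 were higher (34.2% of all genes). The deepest falls were those of the feedback genes Pmepa1, 15.4-fold, and Ldlrad4, 9.31-fold, while Smad7 fell only 1.23-fold and Ltbp2 rose 2.33-fold. Of the 9, 6 were higher in pEpiC than in CDC (39.8% of all genes), led by the matrix genes Ltbp2 (25.9-fold) and Tgfbi (17.3-fold), 2 were lower and Smurf1 did not pass the test. Against pEpiC, the clone was lower for 8 of the 9 (41.5% of all genes), and Smad7 did not pass the test.

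**Figure D1:**
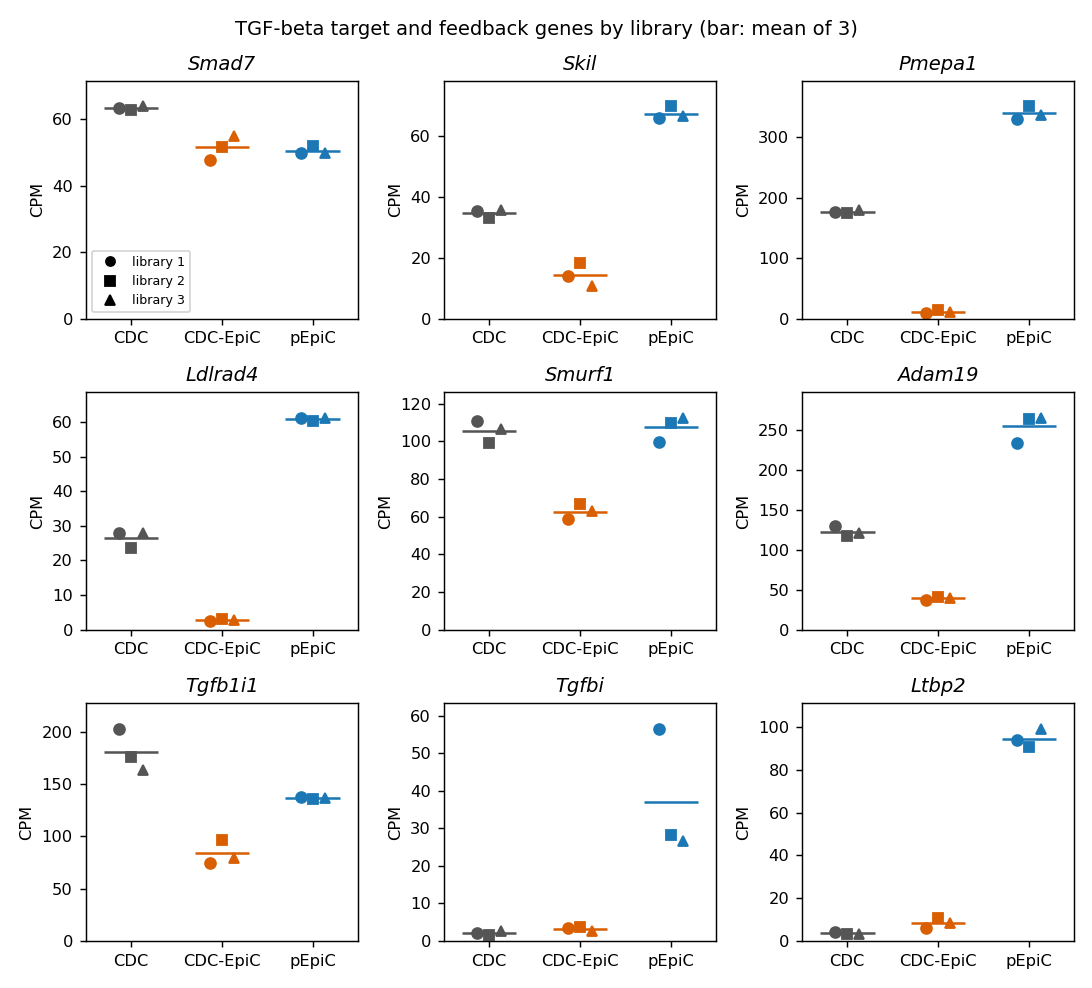
Level of each of the 9 genes in every library, in CPM (counts per 1000000 after TMM normalization) on a linear axis scaled for each gene separately, by kind of cell, with each point a library and each line the mean of 3. Pmepa1 and Ldlrad4 show the widest gaps between CDC-EpiC and the other kinds, Ltbp2 and Tgfbi are high in pEpiC alone, and the Smad7 libraries lie within a narrow band of 47.8 to 63.8 CPM.

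Levels below are CPM, the counts per 1000000 counts of a library after TMM normalization, and changes are fitted log2 differences with their standard error (SE). A gene was called where edgeR's quasi-likelihood test gave a Benjamini-Hochberg adjusted p under 0.05 over all genes tested. Such calls were common, so the counts of genes called are to be read against the following shares among all genes. In CDC-EpiC vs CDC, 68.8% of 12976 genes were called, 34.2% higher and 34.6% lower, and the libraries of the kinds did not overlap for 72.1%. For pEpiC vs CDC, 78.3% of 13526 genes were called, 39.8% higher and 38.5% lower, and 81.5% did not overlap. In CDC-EpiC vs pEpiC, 81.9% of 13547 genes were called, 40.3% higher and 41.5% lower, and 84% did not overlap. The CDC libraries serve in the first and second of these comparisons, so their changes are not independent of each other. In whole cultures, fewer cells of a type and less RNA per cell cannot be told apart.

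Library totals lay between 22008833 and 22756045 expected counts. The labelled kinds were checked against marker genes. Of 12 epicardial and mesothelial genes, all 12 had at least 10 counts in every pEpiC library and 10 in every CDC and CDC-EpiC library, with summed levels of 724 to 761 CPM in CDC, 5986 to 6933 in CDC-EpiC and 595 to 632 in pEpiC. The pEpiC libraries thus had the lowest sum, with Upk3b, a mesothelial uroplakin, at 69.4 ± 8.33 CPM (SD, n = 3) against 229 ± 8.35 in CDC and 2655 ± 207 in CDC-EpiC. Upk3b weighed most in the CDC and CDC-EpiC sums. Single markers went both ways, with 6 of the 12 called higher and 6 lower in pEpiC vs CDC (39.8% and 38.5% of all genes). Among the 6 higher were Wt1 and Tcf21, at 51.1 ± 3.88 and 102 ± 6.8 CPM in pEpiC. They were at 10.0 and 12.3 CPM in CDC and 119 and 27.9 CPM in CDC-EpiC. The epithelial keratins Krt8, Krt18 and Krt19 were at 2.76 ± 0.153, 2.03 ± 0.492 and 1.22 ± 0.191 CPM in pEpiC. In the same order they were at 0.274, 0.152 and 35.4 CPM in CDC and 0.209, 0.179 and 25.4 CPM in CDC-EpiC. The epicardial name of pEpiC is therefore that of the labels, which these markers bear out only in part. The CDC surface genes Eng, Thy1 and Ly6a were detected in all libraries. Macrophage genes (10 genes) summed to 57.7 to 61.0 CPM in CDC and 22.6 to 25.2 CPM in CDC-EpiC, where Ptprc was at 0 counts, but to 867 CPM in pEpiC library 1 and 336 and 309 CPM in libraries 2 and 3. Most of the CDC sum was Lyz2 (mean 37.7 CPM) and Csf1r (19.6 CPM). Of the 10 genes, 5 had at most 3 counts in every CDC library, Ptprc among them, and 7 in every CDC-EpiC library. Fibroblast genes (6 genes) summed to 20830 to 22030 CPM in pEpiC, against 5017 to 6870 in CDC and 5008 to 6141 in CDC-EpiC. The similar sums of CDC and CDC-EpiC hide opposite moves. In CDC-EpiC vs CDC, 2 of the 6 were called higher and 3 lower (34.2% and 34.6% of all genes). Dcn went from 462 to 1839 CPM and Col3a1 from 1276 to 206 CPM. Smooth muscle genes (9 genes) summed to 2301 to 2796 CPM in CDC, 1643 to 2097 in CDC-EpiC and 1218 to 1239 in pEpiC. Of these 9, 7 were at least 2-fold lower in CDC-EpiC vs CDC (12.4% of all genes). The other 2 were at least 2-fold higher (9.33% of all genes): Mylk went from 130 to 844 CPM and Smtn from 137 to 632 CPM. Endothelial genes (10 genes) summed to at most 26.8 CPM in any library, and cardiomyocyte genes (10 genes) to 138 to 155 CPM in pEpiC, mostly Tnnt2, and at most 28.0 CPM elsewhere. The part of these cell markers in the changes below was not tested, except where a value is given.

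Annotated starts of 4 of the 9 genes were matched in RefSeq, and 3 of the regions before them are printed. Tgfbi and Ltbp2 are shown because they rose furthest in pEpiC, and Smurf1 because its level there was close to that in CDC. The sequences are RefSeq's on GRCm38.p6, 5′ to 3′ on the strand of the gene, and cover the part of the 250 bases before the transcript start that lies outside every annotated transcript of the gene. Capitals mark CAGAC, the SMAD-binding box, or its reverse complement GTCTG.
Tgfbi, chr13:56609336-56609522, plus strand: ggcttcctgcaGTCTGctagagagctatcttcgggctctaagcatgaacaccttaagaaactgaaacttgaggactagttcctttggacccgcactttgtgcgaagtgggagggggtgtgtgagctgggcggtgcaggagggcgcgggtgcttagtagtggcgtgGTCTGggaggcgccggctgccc
Ltbp2, chr12:84876559-84876741, minus strand: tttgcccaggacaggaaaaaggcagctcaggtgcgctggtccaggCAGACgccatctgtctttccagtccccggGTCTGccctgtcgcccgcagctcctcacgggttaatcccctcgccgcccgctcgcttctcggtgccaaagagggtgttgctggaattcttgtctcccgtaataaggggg
Smurf1, chr5:144965900-144966080, minus strand: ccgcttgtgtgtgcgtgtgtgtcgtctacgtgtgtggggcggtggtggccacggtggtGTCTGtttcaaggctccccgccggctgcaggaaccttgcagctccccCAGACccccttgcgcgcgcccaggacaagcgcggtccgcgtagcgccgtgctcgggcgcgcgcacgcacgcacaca

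The letters CAGAC occurred 2 times, on either strand, in each of these 3 regions. Over the full 250 bases, 42.2% of 32851 RefSeq promoter windows held at least 1 match and 11.7% held at least 2, so the motif is common by its length. Adam19 had 3 annotated windows with 1, 0 and 1 matches, and the window with none held 1 match of TGANTCA, the AP-1 site, which 6.75% of all windows hold. The palindromic SMAD element GTCTAGAC shares the letters AGAC with CAGAC but does not contain it. That palindrome was in none of the 6 windows of these 4 genes and in 0.167% of all windows. Smurf1, which did not pass the test in pEpiC vs CDC, and Ltbp2, the gene that rose most there, thus held the same number of CAGAC matches in these windows. A match of letters describes the sequence and is not evidence of binding.

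Smad7 encodes the inhibitory SMAD that competes for the activated type I receptor and brings ubiquitin ligases to it. The gene (NCBI Gene 17131) spans chr18:75367529-75395935 on the plus strand of GRCm38 (GENCODE M21), with 4 exons in its longest coding transcript. Its level was 63.3, 62.6 and 63.8 CPM in the CDC libraries, 47.8, 51.7 and 55.0 CPM in CDC-EpiC and 49.7, 52.0 and 49.6 CPM in pEpiC. Every CDC library lay above every library of the other kinds, and those of CDC-EpiC and pEpiC overlapped. The fall was 0.30 on the log2 scale in CDC-EpiC vs CDC (log2 change -0.30, SE 0.0750, edgeR adjusted p = 0.0023) and slightly more in pEpiC vs CDC (log2 change -0.37, SE 0.0530, edgeR adjusted p = 9.8e-05). Between CDC-EpiC and pEpiC the difference was 0.03 (95% interval -0.09 to 0.14, edgeR adjusted p = 0.672), but it was 0.24 with an offset for transcript length (adjusted p = 0.00256) and -0.35 on log2(TPM + 1) (limma adjusted p = 0.00162), so no direction is given for it. In CDC-EpiC vs CDC, 32.1% of all genes tested had a lower log2 change than Smad7, so its fall was among the smaller ones. The fall of Smad7 in pEpiC vs CDC was -0.26 on log2(FPKM + 1) (limma adjusted p = 0.00282) and -0.57 with the length offset (edgeR adjusted p = 2.5e-06). On log2(TPM + 1) alone among the scales tried it was not called and had the other sign, at 0.10 (limma adjusted p = 0.195), where the median of all genes was 0.41.

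Skil encodes SnoN, a nuclear protein that represses SMAD complexes and is degraded when the pathway is activated. Skil (NCBI Gene 20482) lies at chr3:31095058-31122577 on the plus strand, with 7 exons. Its level was 35.3, 32.9 and 35.7 CPM in CDC, 14.1, 18.3 and 10.9 CPM in CDC-EpiC and 65.8, 69.7 and 66.6 CPM in pEpiC. The kinds did not overlap, and pEpiC stood above CDC and CDC above the clone, whose libraries were the most spread. Skil fell in CDC-EpiC vs CDC (log2 change -1.27, SE 0.133, edgeR adjusted p = 5.9e-07) and rose in pEpiC vs CDC (log2 change 0.92, SE 0.0579, edgeR adjusted p = 2.6e-07).

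Pmepa1 encodes a membrane protein that binds SMAD2 and SMAD3 and keeps them from the receptor. It lies (NCBI Gene 65112) at chr2:173224458-173276533 on the minus strand, with 4 exons. Its level was 176.7, 174.5 and 180.4 CPM in CDC, 9.91, 14.3 and 10.4 CPM in CDC-EpiC and 330.3, 350.9 and 337.1 CPM in pEpiC. The 3 kinds lay far apart, with the spread between libraries of a kind at an SD of 2.96 CPM in CDC, 2.43 in CDC-EpiC and 10.5 in pEpiC. In CDC-EpiC vs CDC the log2 change was -3.95 (SE 0.116, edgeR adjusted p = 2.8e-13), and only 137 of the 12976 genes tested (1.06%) had a lower one. Pmepa1 rose 1.86-fold in pEpiC vs CDC (log2 change 0.89, SE 0.0569, edgeR adjusted p = 2.7e-07). The clone held 29.5-fold less than pEpiC, the widest gap of the 9 genes in any of the 3 comparisons.

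Ldlrad4, also known as C18orf1 in its human form, encodes a relative of the Pmepa1 protein that likewise binds SMAD2 and SMAD3. Its locus (NCBI Gene 52662) is chr18:67933257-68268630 on the plus strand, with 6 exons. Its level was 28.0, 23.7 and 27.9 CPM in CDC, 2.52, 3.18 and 2.88 CPM in CDC-EpiC and 61.0, 60.2 and 61.2 CPM in pEpiC. The order of the kinds was that of Pmepa1, without overlap. Ldlrad4 fell in CDC-EpiC vs CDC (log2 change -3.22, SE 0.120, edgeR adjusted p = 4.1e-12), with 1.84% of all genes lower, and rose in pEpiC vs CDC (log2 change 1.15, SE 0.0705, edgeR adjusted p = 2.1e-07). The end of the gene overlaps Fam210a on the opposite strand, and whether counting used the strand is not given. Fam210a itself was at 32.5 ± 3.64 CPM (SD, n = 3) in CDC, 27.2 ± 3.14 in CDC-EpiC and 44.5 ± 0.962 in pEpiC. Its means had the same order of kinds as Ldlrad4, over a narrower range. The part of Fam210a in the Ldlrad4 counts was not tested.

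Smurf1 encodes a ubiquitin ligase that, carried by Smad7, marks the type I receptor and some SMADs for degradation. Smurf1 (NCBI Gene 75788) lies at chr5:144876495-144965847 on the minus strand, with 19 exons. Its level was 110.8, 98.9 and 106.4 CPM in CDC, 58.6, 66.6 and 62.8 CPM in CDC-EpiC and 99.8, 109.7 and 112.6 CPM in pEpiC. The clone lay below the other kinds without overlap, and CDC and pEpiC overlapped. Smurf1 fell in CDC-EpiC vs CDC (log2 change -0.76, SE 0.0782, edgeR adjusted p = 5.4e-07), less than Skil, Pmepa1 and Ldlrad4. The difference in pEpiC vs CDC was -0.02 (95% interval -0.15 to 0.11, edgeR adjusted p = 0.818), but with an offset for transcript length it was -0.40 (adjusted p = 0.000138) and on log2(TPM + 1) it was 0.47 (limma adjusted p = 0.000423), so neither direction is given for it.

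All 5 of these feedback genes therefore fell in the clone, as 34.6% of all genes did, with a median log2 change of -1.27 where the median of all genes was 0.00265. Between pEpiC and CDC, Skil, Pmepa1 and Ldlrad4 rose (log2 changes 0.92, 0.89 and 1.15; with the length offset 0.43, 0.63 and 0.91, all still called), Smad7 fell and Smurf1 did not pass the test.

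Adam19 encodes a membrane metalloprotease that sheds cell-surface proteins and is needed for the forming heart valves and septa. Adam19 (NCBI Gene 11492) lies at chr11:46055992-46147343 on the plus strand, with 23 exons. Its level was 129.2, 117.3 and 121.6 CPM in CDC, 36.8, 41.5 and 40.3 CPM in CDC-EpiC and 233.5, 263.9 and 265.3 CPM in pEpiC. The order was again pEpiC, CDC and then the clone, without overlap. Adam19 fell in CDC-EpiC vs CDC (log2 change -1.64, SE 0.0786, edgeR adjusted p = 7.3e-11) and rose in pEpiC vs CDC (log2 change 1.01, SE 0.0703, edgeR adjusted p = 5.2e-07).

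Tgfb1i1 encodes Hic-5, an adaptor of focal adhesions related to paxillin that is induced by TGF-beta. Its locus (NCBI Gene 21804) is chr7:128246812-128255699 on the plus strand, with 10 exons. Its level was 203.1, 176.1 and 163.9 CPM in CDC, 74.9, 97.0 and 79.7 CPM in CDC-EpiC and 137.7, 136.2 and 136.6 CPM in pEpiC. CDC was the highest kind and the clone the lowest, without overlap, which set Tgfb1i1 apart from Adam19. It fell in CDC-EpiC vs CDC (log2 change -1.12, SE 0.103, edgeR adjusted p = 1.5e-07) and by less in pEpiC vs CDC (log2 change -0.45, SE 0.0800, edgeR adjusted p = 0.00046). The Tgfb1i1 change in pEpiC vs CDC depended on the scale: it was still called at -0.33 on log2(FPKM + 1) (limma adjusted p = 0.00312), but not at -0.12 with a length offset (edgeR adjusted p = 0.170) or at 0.05 on log2(TPM + 1) (limma adjusted p = 0.530).

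Tgfbi encodes a secreted matrix protein that binds collagens and integrins. The gene (NCBI Gene 21810) spans chr13:56609523-56639562 on the plus strand, with 17 exons, and follows directly on the Tgfbi sequence printed above. Its level was 1.98, 1.68 and 2.58 CPM in CDC, 3.36, 3.59 and 2.75 CPM in CDC-EpiC and 56.6, 28.4 and 26.5 CPM in pEpiC. CDC and CDC-EpiC were both low, on 37 to 57 and 62 to 79 counts per library, and pEpiC was high, with library 1 well above libraries 2 and 3.

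In pEpiC vs CDC, Tgfbi rose with a log2 change of 4.11 (SE 0.336, edgeR adjusted p = 1.6e-06), and 3.56% of all genes had a higher change. In CDC-EpiC vs CDC the change was 0.63 (SE 0.202, edgeR adjusted p = 0.0125) without overlap between the kinds. That call is a weak one: the Tgfbi adjusted p was 0.0529 with DESeq2, 0.143 with all 9 libraries fitted together, 0.0568 without CDC-EpiC library 2 and 0.0570 without CDC library 2.

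Macrophages are known to express Tgfbi, and macrophage genes were detected in pEpiC. In pEpiC library 1, Tgfbi was 2.06 times its mean of the other 2 libraries, the 10 macrophage genes were 2.46 to 3.52 times theirs, and the other 8 genes of the TGF-beta group were 0.883 to 1.01 times theirs. Among 9222 genes of at least 10 CPM in pEpiC, 44 (0.477%) had a ratio at least as high as that of Tgfbi. Without that library, the Tgfbi log2 change was 3.67 in pEpiC vs CDC (edgeR adjusted p = 7.0e-09) and -3.09 in CDC-EpiC vs pEpiC (edgeR adjusted p = 4.9e-10), so the Tgfbi calls did not rest on it. The part of macrophages in the Tgfbi level of any pEpiC library, library 1 included, was not tested.

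**Figure D2:**
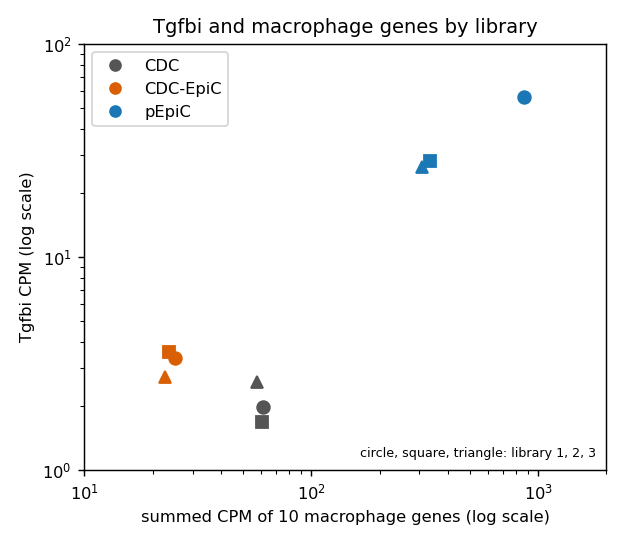
Tgfbi level against the summed level of 10 macrophage genes in each of the 9 libraries, both in CPM on log axes, with each point a library. The pEpiC library with 867 CPM of macrophage genes has 56.6 CPM of Tgfbi, the other pEpiC libraries have 28.4 and 26.5 CPM, and all 6 CDC and CDC-EpiC libraries lie below 4 CPM.

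Ltbp2 encodes a microfibril protein of the latent TGF-beta binding protein family that does not itself bind latent TGF-beta. The gene (NCBI Gene 16997) spans chr12:84783212-84876532 on the minus strand, with 36 exons, and an antisense transcript is annotated over its start. Its level was 4.24, 3.31 and 3.08 CPM in CDC, 5.93, 10.5 and 8.46 CPM in CDC-EpiC and 94.0, 90.6 and 99.2 CPM in pEpiC. The kinds did not overlap, and unlike Tgfbi the 3 pEpiC libraries were close to each other, with library 1 neither the highest nor the lowest.

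The Ltbp2 log2 change in pEpiC vs CDC was 4.69 (SE 0.102, edgeR adjusted p = 2.9e-10), with 2.83% of all genes higher. In CDC-EpiC vs CDC it was 1.22 (SE 0.198, edgeR adjusted p = 5.8e-05), on 68 to 92 counts per CDC library and 134 to 232 per CDC-EpiC library. Ltbp2 was thus the only one of the 9 genes to be at least 2-fold higher in the clone than in CDC, as 9.33% of all genes were, against 5 of the 9 that were at least 2-fold lower, as 12.4% were. At least 2-fold changes in either direction were thus called for 6 of the 9 and for 21.7% of all genes.

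**Figure D3:**
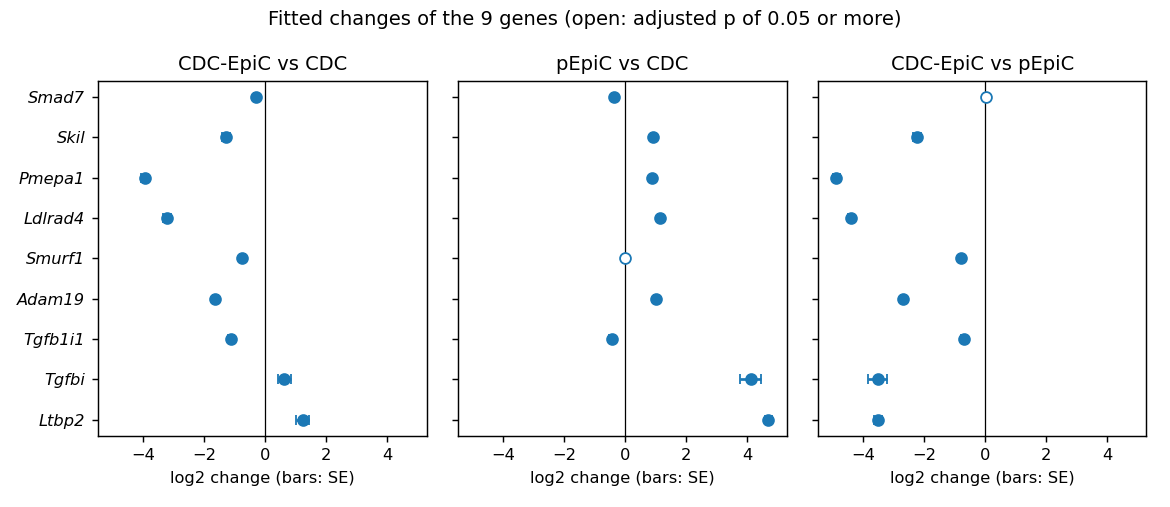
Fitted log2 change of each of the 9 genes in the 3 comparisons, with bars of 1 SE and a line at no change. Pmepa1 and Ldlrad4 lie lowest in CDC-EpiC vs CDC at -3.95 and -3.22, Ltbp2 and Tgfbi highest in pEpiC vs CDC at 4.69 and 4.11, and none of the 9 is called higher in CDC-EpiC vs pEpiC on this scale.

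The comparison of the clone with pEpiC sets a clone grown from CDC beside the cells labelled as primary epicardial. It uses no CDC library, but its own libraries also serve in the comparisons with CDC, so its changes are not independent of those. The deepest falls from pEpiC to the clone were those of Pmepa1 (log2 change -4.88, SE 0.113, edgeR adjusted p = 2.2e-10) and Ldlrad4 (log2 change -4.41, SE 0.0789, edgeR adjusted p = 5.6e-11). Tgfbi and Ltbp2, although higher in the clone than in CDC, were still 11.5-fold and 11.4-fold below pEpiC (log2 changes -3.53 and -3.51). Adam19 (-2.69) and Skil (-2.23) followed, and Smurf1 (-0.78, edgeR adjusted p = 1.3e-06) and Tgfb1i1 (-0.71, edgeR adjusted p = 2.0e-05) fell least among the 8 genes called. Over the alternatives, the log2 changes ranged from -2.96 to -2.25 for Adam19, from -2.43 to -1.75 for Skil and from -3.71 to -2.78 for Ltbp2. All of these stayed called.

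Over the 9 genes, the libraries of the kinds did not overlap for 9 in CDC-EpiC vs CDC, for 8 in pEpiC vs CDC, and for 8 in CDC-EpiC vs pEpiC. Since 72.1%, 81.5% and 84% of all genes also did not overlap, that count alone sets the 9 genes little apart from other genes. Their direction was more uneven than that of all genes in CDC-EpiC vs pEpiC, with 0 higher by edgeR (0 also with DESeq2 and at an unadjusted p under 0.05, but 1, Smad7, with the length offset) and 8 lower and a median log2 change of -2.69, where 40.3% of all genes were higher and 41.5% lower and their median was -0.02. In that comparison 6 of the 9 were at least 2-fold lower, as 20.1% of all genes were. The 9 genes had a median log2 change of -1.12 in CDC-EpiC vs CDC and of 0.92 in pEpiC vs CDC, where 4 were at least 2-fold higher, as 15.7% of all genes were, and 0 at least 2-fold lower (30.1% of all genes in either direction). Of those 4, Adam19 and Ldlrad4 stayed called but did not stay at 2-fold under every alternative. Their log2 changes in pEpiC vs CDC ranged from 0.56 to 1.48 for Adam19 and from 0.91 to 1.32 for Ldlrad4.

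Skil, Pmepa1, Ldlrad4 and Adam19 shared 1 order of levels, pEpiC above CDC above CDC-EpiC, with every pair of neighbours called. The size of the step differed within that order. Pmepa1 fell 15.4-fold from CDC to the clone and Skil 2.42-fold, but the rises from CDC to pEpiC were 1.86-fold for Pmepa1, 1.89-fold for Skil, 2.01-fold for Adam19 and 2.22-fold for Ldlrad4. Tgfbi and Ltbp2 had the order pEpiC, CDC-EpiC and CDC, Tgfb1i1 the order CDC, pEpiC and CDC-EpiC, and Smad7 the order CDC, CDC-EpiC and pEpiC, with the last pair not called. On log2(TPM + 1) neither Smad7 nor Tgfb1i1 was called between CDC and pEpiC, and with the length offset Tgfb1i1 was not.

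Per length, in TPM (transcripts per 1000000), Tgfb1i1 had the highest mean of the 9 genes in each kind, at 181 ± 16.3 TPM (SD, n = 3) in CDC, 88.2 ± 10.2 in CDC-EpiC and 187 ± 1.66 in pEpiC. In pEpiC Pmepa1 was within the spread of it, at 181 ± 8.52 TPM, and above it in library 2. In CDC it was followed by Pmepa1 at 68.4 ± 3.72 TPM, and Ltbp2 was the least abundant at 0.913 ± 0.136 TPM. In the clone Pmepa1 dropped to 4.70 ± 0.874 TPM, below Smad7 at 23.0 ± 2.00 TPM. Longer genes took a larger share of the counts in pEpiC: over all genes, the log2 change in CPM from CDC rose by 0.45 per doubling of transcript length, so that pEpiC levels in TPM and in CPM do not stand in the same ratio to CDC. On log2(TPM + 1), 8237 genes were called higher in pEpiC vs CDC and 2822 lower, against 5380 and 5213 on counts, and 7 of the 9 genes were then called higher and none lower.

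Genes whose pattern over the 9 libraries was most like that of Pmepa1, by Pearson's r of log2(CPM + 1) among 9473 genes of at least 10 CPM, were Hspb7, a small heat shock protein, Pcdh18, a protocadherin, and Igfbp7, a secreted binding protein of insulin-like growth factors, each with r = 0.999. Hspb7 averaged 57.7 CPM in CDC, 4.47 in CDC-EpiC and 101 in pEpiC, and Igfbp7 averaged 492, 49.1 and 925 CPM. For Smad7 the closest were Mars, the methionyl-tRNA synthetase, 1810055G02Rik and Magee1, at r = 0.976, 0.976 and 0.975. The libraries fall into 3 kinds, so these values describe 3 group levels rather than 9 independent points.

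Other genes known to be raised by TGF-beta were described from a list of 18, of which 17 were tested in CDC-EpiC vs CDC. In the clone 14 of the 17 were lower than in CDC (34.6% of all genes), 1 was higher and 2 were not called, with a median log2 change of -1.92. Among those that changed most were Ctgf, a matricellular growth factor, and Thbs1, a thrombospondin that can release latent TGF-beta. Ctgf went from 1045 ± 94.3 CPM (SD, n = 3) in CDC to 78.8 ± 25.3 in CDC-EpiC (log2 change -3.74, SE 0.184, edgeR adjusted p = 1.0e-10), and Thbs1 from 5245 ± 609 to 497 ± 134 CPM (log2 change -3.41, SE 0.165, edgeR adjusted p = 8.2e-11). The log2 change of Pmepa1, -3.95, was of similar size.

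The same 18 genes split in pEpiC vs CDC, with 7 higher, 8 lower and 3 not called and a median of -0.13. Among all genes 39.8% were higher there and 38.5% lower. Thbs1 fell there too, to 2176 ± 138 CPM (log2 change -1.31, SE 0.0901, edgeR adjusted p = 4.6e-07), where Pmepa1, Skil and Ldlrad4 rose. Cdkn2b, a cell cycle inhibitor named after its values were seen, had 0 counts in the 3 CDC libraries and 412 to 471 in pEpiC, so that its level there was at least 141-fold higher, set against a floor of 3 counts per library.

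Ligands, receptors and SMADs (16 genes, 15 tested) were evenly split in CDC-EpiC vs CDC. Of the 15, 6 were higher (34.2% of all genes), 6 lower (34.6%) and 3 not called, with a median log2 change of -0.07. Inhba, the subunit of activin A, fell from 47.4 ± 5.48 to 2.81 ± 0.0196 CPM (log2 change -4.08, SE 0.116, edgeR adjusted p = 2.1e-13). Tgfb3 rose from 72.7 ± 8.53 to 218 ± 18.1 CPM (log2 change 1.58, SE 0.0944, edgeR adjusted p = 9.4e-10), and the activin receptor Acvr2b rose from 4.44 ± 0.119 to 10.8 ± 1.22 CPM. Of the core of the pathway, named after their values were seen, Tgfb1 fell 2.33-fold in the clone and the receptor Tgfbr1 1.18-fold, while Tgfbr2 rose 1.34-fold and Smad3 1.53-fold (edgeR adjusted p from 1.3e-08 to 0.0248). Of the 15 genes tested on this list, 9 were higher in pEpiC vs CDC (39.8% of all genes), 3 lower (38.5%) and 3 not called (median 0.54).

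Latency genes (11 genes, 10 tested) hold or release the latent ligand. In the clone 7 were lower than in CDC (34.6% of all genes), 2 were higher (34.2%) and 1 was not called (median -0.99). Lrrc32, which displays latent TGF-beta on the cell surface, was at 44.3 ± 5.66 CPM in CDC, 0.342 ± 0.0638 in CDC-EpiC, on 6 to 9 counts per library, and 310 ± 22.3 in pEpiC. Itgb5, an integrin subunit, had the same order, at 243 ± 7.01, 19.0 ± 0.311 and 644 ± 10.6 CPM. The family members Ltbp1, Ltbp3 and Ltbp4, unlike Ltbp2, bind latent TGF-beta. Ltbp1 fell from 71.7 ± 5.39 CPM in CDC to 5.28 ± 0.442 in CDC-EpiC (log2 change -3.77, SE 0.0984, edgeR adjusted p = 1.1e-13) and to 11.4 ± 1.60 in pEpiC (log2 change -2.70, SE 0.0994, edgeR adjusted p = 7.0e-09), where Ltbp2 rose in both. Ltbp3 and Ltbp4, named after their values were seen, had log2 changes of -0.76 and 0.72 in CDC-EpiC vs CDC (edgeR adjusted p = 4.9e-06 and 3.7e-05) and both fell in pEpiC vs CDC (-0.33 and -0.33). Of the latency genes, 5 were higher in pEpiC vs CDC (39.8% of all genes), 4 lower (38.5%) and 1 not called.

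Other regulators that limit or tune SMAD signalling (12 genes) were split in CDC-EpiC vs CDC. Of the 12, 2 were higher (34.2% of all genes), 5 lower (34.6%) and 5 not called, with a median of -0.05. Bambi, a receptor without kinase that blocks signalling, rose from 4.42 ± 0.772 to 19.3 ± 2.25 CPM (log2 change 2.12, SE 0.135, edgeR adjusted p = 2.0e-09). Smad6, the inhibitory SMAD that acts mainly on the BMP branch, rose from 57.2 ± 6.93 to 135 ± 19.9 CPM (log2 change 1.24, SE 0.110, edgeR adjusted p = 1.0e-07), where its relative Smad7 fell. Nedd4l, a ubiquitin ligase for activated SMAD2 and SMAD3, fell from 65.8 ± 4.51 to 28.3 ± 1.31 CPM. Of the 12 genes, 9 were higher in pEpiC vs CDC (39.8% of all genes), 2 lower (38.5%) and 1 not called (median 0.46).

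Targets of bone morphogenetic proteins (BMP), a related family of ligands that signals through other SMADs, were taken as a contrast (5 genes). In the clone 4 of the 5 were higher than in CDC (34.2% of all genes) and 1 was lower (median 1.01). Id1 rose from 88.2 ± 12.5 to 245 ± 11.5 CPM (log2 change 1.47, SE 0.0968, edgeR adjusted p = 2.9e-09), Smad9 from 18.3 ± 0.444 to 42.0 ± 2.73 CPM and Id2 from 44.5 ± 1.75 to 90.1 ± 5.13 CPM. In pEpiC vs CDC, 1 was higher (39.8% of all genes), 3 were lower (38.5%) and 1 was not called. Id1 stood at 23.9 ± 2.11 CPM in pEpiC, the lowest of the kinds.

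**Figure D4:**
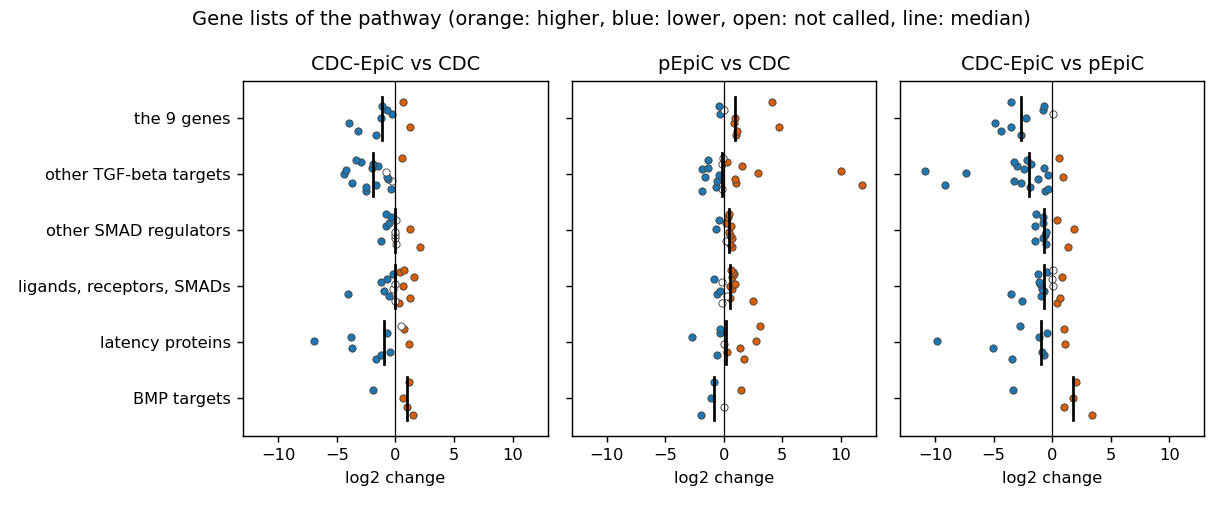
Log2 changes of the 9 genes and of the 5 other lists of the pathway in the 3 comparisons, with each point a gene (orange called higher, blue called lower, open not called) and each bar the median of its list, and with the point of Cdkn2b, at 0 counts in CDC, set by the fit alone. In CDC-EpiC vs CDC the median is -1.12 for the 9 genes and -1.92 for the other targets, near 0 for ligands, receptors and SMADs (-0.07) and for the other regulators (-0.05), and 1.01 for the BMP targets.

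With the latency genes, the ligands, receptors and SMADs, the other targets and the other regulators counted as 1 list (57 genes), 32 of the 54 tested were lower in the clone than in CDC, 11 higher and 11 not called, against 34.6% lower and 34.2% higher over all genes. For pEpiC vs CDC, 30 of 55 were higher, 17 lower and 8 not called, against 39.8% and 38.5%. In CDC-EpiC vs pEpiC, 42 of 55 were lower, 10 higher and 3 not called, against 41.5% and 40.3%. The epicardial and mesothelial markers, whose summed level was highest in CDC-EpiC, mostly moved in the opposite direction to these genes in the comparisons with the clone. Of these markers, 7 were higher and 2 lower in CDC-EpiC vs CDC, and 8 were higher and 4 lower in CDC-EpiC vs pEpiC. In pEpiC vs CDC they were split, with 6 higher and 6 lower. The part of the marker shift in the result was not tested.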

How the data were processed

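Poly(A) RNA was sequenced as 100-base pairs on a BGISEQ-500. Per the labels the tools were HISAT2 2.0.4, Bowtie2 2.2.5, RSEM 1.2.12 and DESeq2 1.4.5 with build mm10. Their roles, the annotation and the use of strand are not given in the sources used here, so overlapping and near-identical genes are uncertain. The authors deposited expected counts per gene (not whole for 30.3% of values), FPKM (scaled by library total and by length of transcript) and TPM (summing alike in every library). A further 9 columns, of the authors' means, were not used.

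The labels list 1 sample per kind, and its 3 library columns were taken as replicates, since separate samples are spoken of in the extraction protocol. The study's methods name fewer biological replicates per condition than there are columns, and which columns share an animal or culture is not given, so p-values may measure technical spread. Libraries of a kind were further apart than read sampling alone gives (chi-square per degree of freedom 4.89 to 23.0).

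Expected counts were rounded and fitted in edgeR 4.0.16 (R 4.3.3) for each pair of kinds: filterByExpr (minimum count 10, minimum total 15), TMM, glmQLFit and glmQLFTest, with Benjamini-Hochberg adjustment over all genes at 0.05. SE is the log2 change divided by the square root of F. CPM values were scaled by TMM over the 9 libraries. Precision is that of 22008833 to 22756045 counts per library, and counting limits cover counting error only. The fits were tested on simulated data. Alternatives used DESeq2 1.42.0, limma 3.58.1 (log2 of FPKM or TPM + 1, or FPKM + 0.1), other scalings and filters, a length offset, a test against a 1.5-fold change, a replicate block and each library left out. Python 3.11.15 with pandas 2.3.3 and matplotlib 3.10.9 made tables and figures.

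The 9 genes, the pathway and marker lists, the tests and the alternatives were chosen with earlier results of these data known. From each other list, the 3 genes with the largest log2 change in CDC-EpiC vs CDC among those called, with at least 10 CPM in the higher kind, were named, and for Smad7 and Pmepa1 the 3 most similar genes outside the lists. A gene that this rule names is not reported here. Gene positions were taken from GENCODE M21, on GRCm38, of which mm10 is another name.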

Additional observations from a re-analysis of the deposited data

How the results depend on the processing

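Of the results for single members under the alternatives, 459 kept their direction and their side of the threshold, 10 lost the threshold, 2 gained it and 15 changed direction. The counts of genes called fell from 8928, 10593 and 11091 to 3664, 5549 and 6578 in CDC-EpiC vs CDC, pEpiC vs CDC and CDC-EpiC vs pEpiC when tested against a 1.5-fold change, and that of the other pathway genes in pEpiC vs CDC from 47 to 23, since that test asks for a larger change. Directions changed for differences near 0 and on scales per length. In pEpiC vs CDC on log2(TPM + 1), the values were 0.10 for Smad7, 0.0494 for Tgfb1i1 and 0.47 for Smurf1. Smurf1 was also at 0.10 with library size alone and with either FPKM scale (0.0954, 0.0977 and 0.1022), 0.0141 with at least 10 counts in every library, 0.0220 with all 9 libraries fitted together, and between -0.0624 and 0.0313 with a library left out. Smad7 in CDC-EpiC vs pEpiC was at -0.35 on log2(TPM + 1), -0.0198 with at least 10 counts in every library, -0.0039 and -0.0043 on the FPKM scales and between -0.0149 and 0.0804 with a library left out. With the length offset, Smurf1 in pEpiC vs CDC (-0.40) and Smad7 in CDC-EpiC vs pEpiC (0.24) were called, and Tgfb1i1 in pEpiC vs CDC was not. The cause was not tested. Tgfbi in CDC-EpiC vs CDC had adjusted p between 0.0038 and 0.512 over its alternatives. Tested against 1.5-fold, Smad7 in both comparisons with CDC and Tgfb1i1 in both comparisons with pEpiC were not called.

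Whether library numbers pair the samples is not known. Deviations of same-numbered libraries correlated at only -0.109 to 0.0851, which with 3 libraries per kind cannot decide it. With the replicate block, 8831, 10604 and 11096 genes and 9, 8 and 8 of the 9 members were called, as many members as without it. In CDC, Tgfbi and Ltbp2 rest on fewer counts than the other members (37 to 92 per library), which limits the precision of their changes.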
